A study of Homo sapiens with 21 samples.

Results

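Fibronectin and 9 secreted proteins that work beside it in the extracellular matrix were followed through a TGFβ time course in HMLE cells. The 10 genes, *FN1*, *TNC*, *SPARC*, *POSTN*, *THBS1*, *THBS2*, *TGFBI*, *SPOCK1*, *FBN1* and *FBLN1*, were taken by symbol from a table of 23201 genes, where each of them had 1 row. HMLE is an established human mammary epithelial line, made immortal in culture, so the measurements come from 1 line in culture without stroma. RNA was sequenced from untreated cells (d0) and from cells given TGFβ for 1, 4, 7, 10, 15 or 20 days (d1 to d20). There were 3 libraries for each of the 7 timepoints (21 libraries), and no timepoint had untreated cells of its own beyond d0, so time in culture and time in TGFβ cannot be told apart. The study used this course as a model of epithelial-mesenchymal transition (EMT), in which epithelial cells take on mesenchymal traits.

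Fibronectin is a large glycoprotein that cells assemble into fibrils through integrins, chiefly α5β1, and that serves as a scaffold for collagens and other matrix proteins. Matricellular proteins are secreted into the matrix but act mainly on how cells attach, signal and remodel it, and many of them are produced in wounds and tumor stroma. Fibronectin is a classical mesenchymal marker in EMT, and TGFβ is a well known inducer of matrix genes.

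The values are normalised read counts, which are the reads of a gene divided by 1 factor per library, and the libraries held between 18847917 and 22667754 reads. The root mean square log2 difference over all tested genes was 0.21 to 0.24 between libraries of 1 timepoint, apart from d7, where library 3 was apart from the other 2 libraries by 0.47 and 0.46. Library 3 of d7 therefore stood apart, and the main values of d7 are also given without it. The summed level of 7 basal epithelial markers was 321068 to 341043 at d0 and 420255 to 430835 at d20, with each marker above 3 reads in some library. Of the markers of other cell types, *PTPRC*, *CD3E*, *CDH5*, *LPL*, *DCN* and *LUM* had at most 3 reads in all libraries. The summed level of 5 fibroblast markers was 1359 to 1432 at d0 and 6362 to 6524 at d20, through *PDGFRB* and *THY1*. The summed level over all libraries was 29.2 to 291 for 5 endothelial markers and 21.8 to 268 for 4 adipocyte markers. Some markers in these lists did move. *CD68* was at 371 ± 3.08 (SD, n = 3) at d0 and rose at d4 and d15, to 803 ± 15.96 and 753 ± 26.2. *FABP4* rose on all 6 treated days, from 12.1 ± 2.04 at d0 to 117 ± 4.88 at d20. *KDR* rose from 42.1 ± 8.63 at d0 to 157 ± 99.0 on d7 and 263 ± 10.3 on d15 and fell at d1, d10 and d20, and *PECAM1*, at 41.3 ± 2.06 at d0, fell on all 6 days. The part of these markers in the results was not tested. In bulk RNA, more cells making a transcript and more transcript per cell cannot be told apart.

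The 10 genes differ in the sequence just before their start sites. The 250 bases upstream of the RefSeq start (GRCh38.p14) were found for 9 of the 10 genes. The 4 below are shown because *FN1* gave the highest normalised read count, *POSTN* was not detected before treatment, and the paralogs *THBS1* and *THBS2* went apart. Motifs searched on both strands are in capitals: the cyclic AMP response element TGACGTCA, the AP-1 site TGANTCA, the E-box CACCTG, the SMAD half-site CAGAC, and the TATA box as TATAAA or TATATAA, which can overlap each other. Sequences run 5′ to 3′ on the strand of the gene.
FN1, chr2:215436069-215436318, minus strand: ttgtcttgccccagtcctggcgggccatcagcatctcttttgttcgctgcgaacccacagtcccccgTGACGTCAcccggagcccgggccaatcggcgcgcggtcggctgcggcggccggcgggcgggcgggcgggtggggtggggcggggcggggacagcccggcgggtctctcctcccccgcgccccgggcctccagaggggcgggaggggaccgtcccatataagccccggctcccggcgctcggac
POSTN, chr13:37598769-37599018, minus strand: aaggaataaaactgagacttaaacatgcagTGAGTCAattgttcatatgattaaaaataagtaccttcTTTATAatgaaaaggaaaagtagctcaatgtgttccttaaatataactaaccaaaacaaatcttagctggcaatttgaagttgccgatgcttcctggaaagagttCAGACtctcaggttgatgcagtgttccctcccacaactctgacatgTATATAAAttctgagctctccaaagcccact
THBS1, chr15:39580829-39581078, plus strand: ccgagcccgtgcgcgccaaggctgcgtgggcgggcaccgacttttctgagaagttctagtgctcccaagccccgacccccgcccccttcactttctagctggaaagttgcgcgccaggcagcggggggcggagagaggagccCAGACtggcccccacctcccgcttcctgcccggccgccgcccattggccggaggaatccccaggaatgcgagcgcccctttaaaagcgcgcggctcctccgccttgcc
THBS2, chr6:169253847-169254096, minus strand: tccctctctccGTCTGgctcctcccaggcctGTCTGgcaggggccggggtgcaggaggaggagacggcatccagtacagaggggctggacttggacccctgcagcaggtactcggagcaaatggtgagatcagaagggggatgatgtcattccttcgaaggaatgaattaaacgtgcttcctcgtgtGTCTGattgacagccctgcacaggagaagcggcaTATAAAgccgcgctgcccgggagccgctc
The *FN1* window was 76.4% G and C and held the cyclic AMP response element 183 to 176 bases before the start, a motif found in 1.65% of all 35116 windows. The *POSTN* window was 36.4% G and C, against a median of 58% over all windows. It held an AP-1 site 220 bases before the start (6.57% of windows hold one), a SMAD half-site 77 bases before it (38.0%), and overlapping TATATAA (2.42%) and TATAAA (10.7%) from 31 bases before it. The capitals TTTATA in the same window are TATAAA on the other strand. The *THBS1* window held 1 SMAD half-site, 108 bases before the start, and the *THBS2* window held 3, written GTCTG, and a TATAAA 29 bases before the start. Of the other windows, *TNC* held a SMAD half-site and TATATAA, *FBLN1* held a SMAD half-site, and *SPARC*, *TGFBI* and *FBN1* held none of the motifs. No window held CACCTG, which 17.5% of all windows hold. These are matches of letters, and binding of a factor was not measured.

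To ask how each gene moved with TGFβ, all treated days were compared with d0 by limma on log2(value + 1) over the 13343 genes with a mean of at least 10, which all 10 genes passed. A gene was counted as changed at a Benjamini-Hochberg adjusted p under 0.05 and a change of at least 2-fold. At d1, 6 of the 10 genes rose, while 6.47% of all tested genes did. The number that rose was 8 at d4 (background 9.68%), 8 on d7 (8.79%), 7 at d10 (6.94%), 8 on d15 (11.7%) and 9 at d20 (7.51%). The median log2 fold change of the 10 genes was 2.44 at d1, 2.58 at d4, 3.14 on d7, 2.94 at d10, 3.18 on d15 and 3.87 at d20, beside medians between -0.00 and 0.03 over all tested genes. By the same rule none of the 10 fell on any day, while 3.87% of all genes fell at d1, 5.03% at d4, 2.93% on d7, 7.34% at d10, 8.66% on d15 and 4.72% at d20. By edgeR and DESeq2 under the same limits the number that fell was also 0 on each day. At an unadjusted p under 0.05 by limma 1 gene, *THBS2*, was lower at d1, d10 and d20. Without library 3 of d7 the count on d7 was also 8, and the median of the 10 genes was 3.22.

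**Figure D1:**
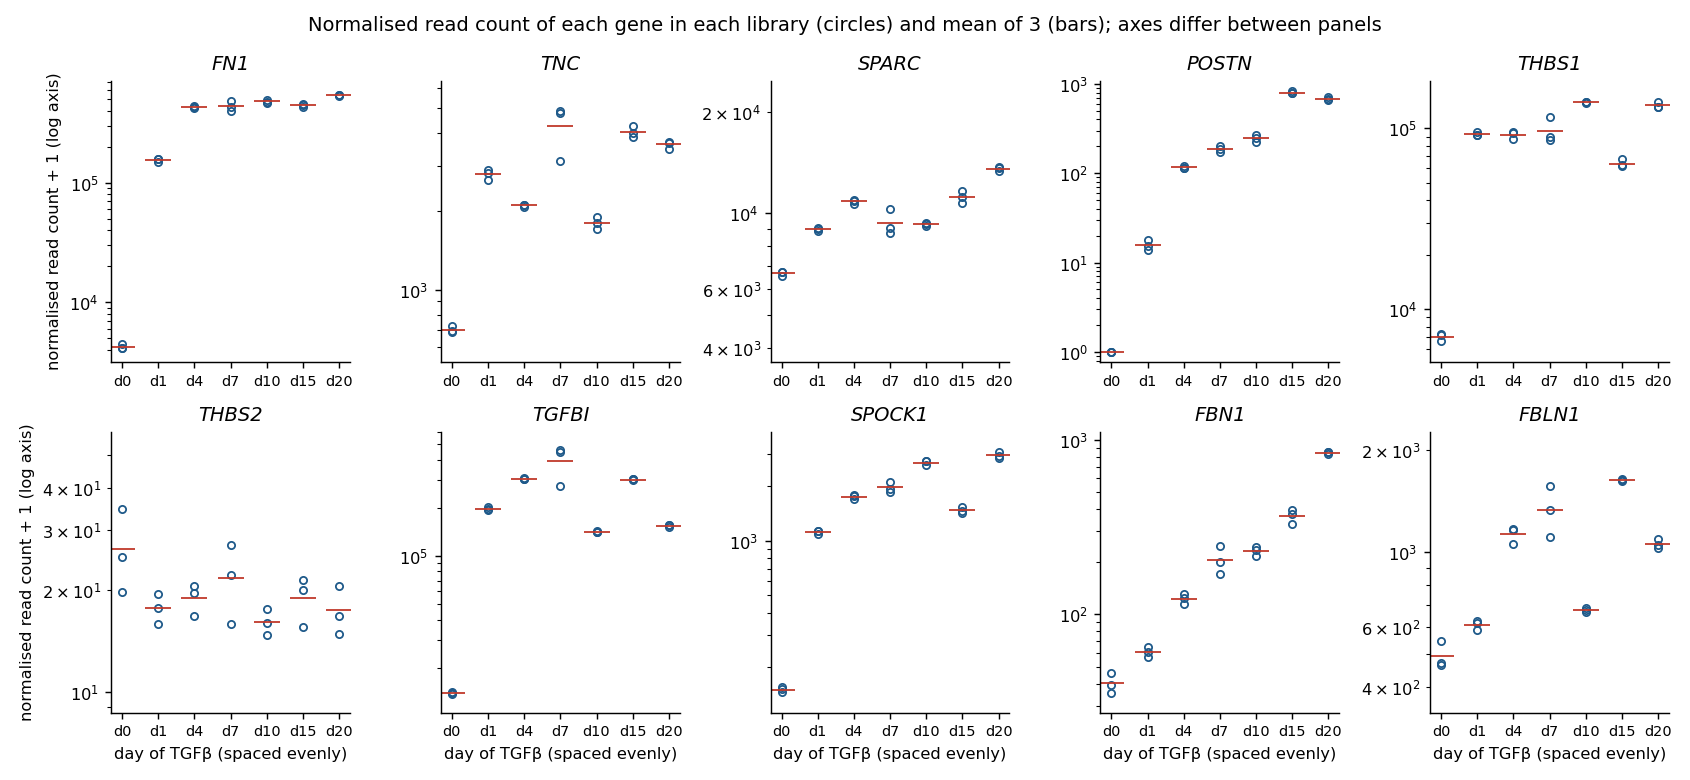
Normalised read count plus 1 of each of the 10 genes (log axes that differ between panels) in every library (circles) at 7 timepoints, with the mean of 3 libraries as a bar. In 9 panels all 18 treated libraries lie above the d0 libraries, and in the *THBS2* panel d1 and d10 lie below d0 and the other 4 treated days overlap with it.

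Fibronectin showed the largest rise of the 9 genes with reads at d0. *POSTN*, with no read at d0, was at least 250-fold higher at d20. *FN1* was at 4451, 4110 and 4168 in the untreated libraries, at 158588, 158897 and 150244 at d1 and at 425548, 431155 and 441115 at d4. It then stood at 428804, 395781 and 481598 on d7, at 465984, 496034 and 474206 at d10, at 456887, 444143 and 429087 on d15, and at 546116, 531997 and 539815 at d20. Every treated library was thus above every untreated one, and most of the rise was complete by d4. The level was 36.7-fold above d0 at d1, 102-fold at d4 and 127-fold at d20, where the log2 fold change was 6.99 (SE 0.06, adjusted p = 1.08e-26, limma). In the order d0, d1, d4, d7, d15, d10, d20, d4 overlapped with d7 and d7 with d15, and the other neighbours did not overlap. The table has 1 row per gene, so splice forms of fibronectin were not analysed here.

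The share of all reads that came from *FN1* was 0.0230% ± 0.00117 (SD, n = 3) at d0 and 0.739% ± 0.0189 at d1. It was 2.05% ± 0.0480 at d4, 2.07% ± 0.220 on d7, 2.22% ± 0.0699 at d10, 2.15% ± 0.0599 on d15 and 2.55% ± 0.0352 at d20. The 18 treated libraries spanned 0.718% to 2.58%, all above d0. A two-sided exact permutation test gave p = 0.1 for each day, the smallest that 3 libraries against 3 allow, and p = 0.0015 for all treated libraries against d0, the smallest that this test gave. Counting error was small beside this: in library 1 of d20 the share was 2.58% with a 95% Wilson interval of 2.58% to 2.59%, which covers counting error only. By mean normalised read count, with no correction for transcript length, *FN1* was in place 742 among all genes at d0, in place 5 at d1 and first on each later day. At d7 the reads of *FN1* came second in libraries 1 and 2, in which the share was 2.01% and 1.88%, and first in library 3, in which it was 2.31%, and the mean share of libraries 1 and 2 was 1.95%.

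Together the 10 genes went from 0.180% of the reads at d0 to 2.18% at d1 and to between 3.59% and 4.49% from d4 on (4.59% on d7 without library 3). *FN1* made up 12.5% to 13.2% of the reads of the 10 genes at d0, 33.6% to 34.2% at d1 and 62.9% to 63.7% at d20. At d0 *TGFBI*, *THBS1* and *SPARC* each had more reads than *FN1*, and from d4 on only *TGFBI* on d7 in libraries 1 and 2 did.

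**Figure D2:**
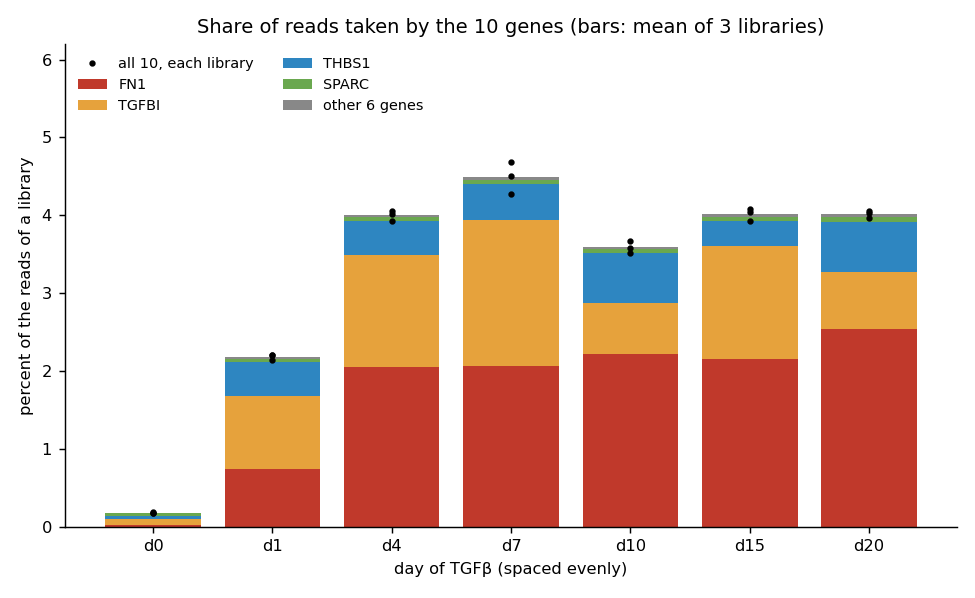
Percent of the reads of a library (vertical axis, from 0) that came from the 10 genes at each timepoint. Stacked bars are means of 3 libraries, and points are the sum in each library. The sum goes from 0.180% at d0 to 4.02% at d20, and *FN1* is the largest part from d4 on.

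Levels of different genes were compared per kilobase of the longest protein-coding transcript in GENCODE 29. At d0 the order of mean level per kilobase was *TGFBI* (4937), *SPARC* (1796), *THBS1* (906), *FN1* (476), *FBLN1* (170), *TNC* (91.5), *SPOCK1* (30.8), *THBS2* (4.38) and *FBN1* (3.34), with *POSTN* at 0. At d20 *FN1* (60563) and *TGFBI* (55183) led, followed by *THBS1* (17273), *SPARC* (3666), *SPOCK1* (610), *TNC* (475), *FBLN1* (366), *POSTN* (202), *FBN1* (71.6) and *THBS2* (2.82). Per kilobase *TGFBI* was above *FN1* at d1 (70545 against 17508), d4 (108719 against 48580), d7 (140855 against 48893) and d15 (107158 against 49789). At d10 *FN1* was at 53761 and *TGFBI* at 50497. The transcript forms used by these cells were not measured, so neighbours in these orders that lie close together are not separated.

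*TGFBI* and *POSTN* encode the related secreted proteins TGFBI, named for its induction by TGFβ, and periostin, which share fasciclin domains and bind integrins and other matrix proteins. Both rose, from very different starting levels and on different schedules. *TGFBI* was at 14025, 13919 and 13589 at d0, at 204017, 196593 and 192814 at d1, at 307327, 303407 and 303811 at d4 and at 461755, 447326 and 275794 on d7. It was at 141041, 143158 and 140578 at d10, at 302521, 301658 and 297233 on d15 and at 156484, 152243 and 155472 at d20. The level thus went up to d7, down at d10, up again on d15 and down at d20, and only d4 and d7 overlapped among neighbours in the order. Library 3 of d7 was below every d4 library, and the other 2 were above every other library. The fold over d0 was 28.5 on d7 (32.8 without library 3) and 11.2 at d20 (log2 fold change at d20 3.48, SE 0.11, adjusted p = 9.28e-17, limma).

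*POSTN* had no read in any untreated library. It was at 16.7, 14.4 and 12.9 at d1, at 114, 113 and 119 at d4, at 171, 199 and 186 on d7 and at 249, 225 and 266 at d10. It reached 784, 828 and 789 on d15 and 662, 675 and 706 at d20, and no neighbouring timepoints overlapped. Against a floor of 3 reads per untreated library, *POSTN* was at least 5.38-fold higher at d1, at least 42.3-fold at d4, at least 68.0-fold on d7 (67.8 without library 3), at least 90.5-fold at d10, at least 294-fold on d15 and at least 250-fold at d20. The gene came on in unequal steps, with 13 to 16 reads per library at d1 and 762 to 916 on d15. The log2 step was 2.90 from d1 to d4 and 1.70 from d10 to d15. It was 0.68 from d4 to d7, 0.41 from d7 to d10 and -0.23 from d15 to d20. At d20 *POSTN* remained far below its paralog, with a log2 ratio of *POSTN* to *TGFBI* of -7.83 ± 0.05 (SD, n = 3).

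*THBS1* and *THBS2* encode thrombospondin-1 and thrombospondin-2, paralogs that bind CD47 and limit the growth of vessels, and thrombospondin-1 can also activate latent TGFβ. Only *THBS1* rose. It was at 7304, 6629 and 7189 at d0, at 91315, 95037 and 91293 at d1, at 87498, 95673 and 93943 at d4 and at 89925, 85825 and 115722 on d7. It was at 138095, 139899 and 140505 at d10, at 67398, 62331 and 61586 on d15 and at 131616, 131724 and 139563 at d20. The rise was thus in place by d1, and d15 was the lowest treated day, below all other treated libraries. The fold over d0 was 13.1 at d1, 19.8 at d10 and 19.1 at d20 (log2 fold change at d20 4.25, SE 0.08, adjusted p = 2.4e-21, limma).

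*THBS2* was low throughout, with 22 to 34 reads per library at d0 and 13 to 25 in treated libraries. Its values were 24.0, 18.7 and 33.6 at d0, 16.7, 18.5 and 14.9 at d1, 15.8, 19.5 and 18.6 at d4, and 21.1, 26.1 and 14.9 on d7. They were 14.9, 16.5 and 13.7 at d10, 20.4, 18.99 and 14.5 on d15 and 13.8, 15.8 and 19.6 at d20. All neighbouring timepoints overlapped in the order of means, and d0 had the highest mean, with all libraries of d1 and d10 below those of d0. The log2 fold change lay between -0.28 on d7 (-0.07 without library 3 of d7) and -0.69 at d10 (SE 0.24, adjusted p = 0.0162 at d10 and 0.042 at d20, limma), so it passed the adjusted p on these days and the 2-fold minimum on none. By edgeR the adjusted p was under the threshold at d1, d10 and d20, and by DESeq2 at d10 alone. Without library 3 of d0 the log2 fold change was -0.47 at d10 (adjusted p = 0.113, limma) and -0.37 at d20 (adjusted p = 0.227), and without library 1 of d0 the adjusted p at d20 was 0.0708. The log2 ratio of *THBS2* to *THBS1* within a library, on normalised read counts plus 1, went from -8.09 ± 0.36 (SD, n = 3) at d0 to -12.93 ± 0.20 at d20, a difference of -4.83 (two-sided exact permutation p = 0.1, the smallest possible).

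*SPARC* and *SPOCK1* encode proteins with a shared SPARC-type domain. SPARC, also called osteonectin, is a collagen-binding protein, and SPOCK1, or testican-1, is a secreted proteoglycan. *SPOCK1* was at 154, 149 and 144 at d0, at 1132, 1130 and 1092 at d1 and at 1761, 1777 and 1705 at d4. It was at 1864, 1921 and 2109 on d7, at 2742, 2614 and 2734 at d10, at 1534, 1463 and 1424 on d15 and at 2857, 2941 and 3071 at d20. No neighbours in its order of d0, d1, d15, d4, d7, d10 and d20 overlapped. The fold at d20 was 19.8 (log2 fold change 4.30, SE 0.05, adjusted p = 4.33e-25, limma).

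*SPARC* had the smallest change at d20 among the 9 genes that rose there. It was at 6520, 6727 and 6696 at d0, between 8778 and 11646 in the libraries of d1 to d15, and at 13656, 13310 and 13736 at d20. All treated libraries were above all untreated ones, but the log2 fold change was between 0.43 and 0.75 from d1 to d15. Only d20 passed both limits, at 1.03 (SE 0.04, adjusted p = 1.2e-14, limma), a 2.04-fold rise. It was 0.83 with libraries scaled to the same total, where the median of all genes moved to between -0.14 and -0.20 against d0, and 0.87 with quantile normalization, both under 2-fold.

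*TNC* encodes tenascin-C, a large matrix glycoprotein that is produced in wounds and tumors and modulates adhesion to fibronectin. It was at 692, 724 and 682 at d0, at 2896, 2812 and 2640 at d1, at 2076, 2126 and 2124 at d4 and at 4896, 4790 and 3116 on d7. It was at 1798, 1900 and 1706 at d10, at 3862, 4275 and 4013 on d15 and at 3492, 3709 and 3687 at d20. All treated libraries were above d0, with d10 and d4 the lowest treated days and d15 and d7 overlapping at the top. The log2 fold change was smallest at d10, 1.36, and largest on d7, 2.58 (2.79 without library 3), and at d20 it was 2.37 (SE 0.10, adjusted p = 1.52e-14, limma), a 5.19-fold rise.

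*FBN1* and *FBLN1* encode fibrillin-1, the backbone of microfibrils that hold latent TGFβ complexes, and fibulin-1, which binds fibronectin and elastic fibers. *FBN1* was at 38.3, 45.0 and 34.6 at d0, at 59.6, 56.4 and 64.5 at d1, at 114, 130 and 122 at d4 and at 170, 199 and 245 on d7. It was at 216, 231 and 243 at d10, at 373, 393 and 326 on d15 and at 830, 844 and 853 at d20. It was the one gene of the 10 whose mean level followed the order of days from d0 to d20, with only d7 and d10 overlapping. The log2 fold change went from 0.61 at d1 to 4.40 at d20 (SE 0.12, adjusted p = 2.18e-18, limma), a 21.4-fold rise. *FBLN1* was at 471, 546 and 463 at d0, at 588, 626 and 617 at d1, at 1167, 1166 and 1055 at d4 and at 1565, 1330 and 1110 on d7. It was at 666, 686 and 676 at d10, at 1639, 1628 and 1644 on d15 and at 1097, 1052 and 1029 at d20. It was thus high on d15 and close to d1 at d10, and d20 overlapped with d4 and d4 with d7. The log2 fold change was 1.73 on d15 and 1.10 at d20 (SE 0.08, adjusted p at d20 = 1.68e-10, limma), and at d1 and d10 it was under 2-fold at 0.31 and 0.46. With libraries scaled to the same total it was 1.00 at d4, just under 2-fold, and 0.90 at d20.

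The schedules were then compared by testing each timepoint against the one before it. Each background is the share of all tested genes at the adjusted p and 2-fold limits, and none is given for looser limits. Between d1 and d4, 3 genes rose (background 4.19%), 2 by edgeR. None fell (1.98%) by limma, edgeR or DESeq2, while 1 was lower at an unadjusted p under 0.05 by limma. The log2 step was 2.90 for *POSTN* (adjusted p = 1.44e-14, limma), 1.47 for *FN1* (1.18e-13) and 1.01 for *FBN1* (1.92e-07). The *FBN1* step was just inside the limit and was 0.96 without library 2 of d1 or without library 2 of d4, and by edgeR it was under the limit. *THBS1* did not step here, with -0.00 on the log2 scale, as its rise was in place at d1.

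Between d4 and d7 none of the 10 genes rose (background 2.27%) or fell (1.51%). With no minimum fold change 6 were higher and 1 lower by adjusted p, counts to which these backgrounds do not apply. With edgeR and DESeq2 1 gene rose. *TNC*, with a log2 step of 0.99, was just outside the limit, and without library 3 of d7 its step was 1.20 (adjusted p = 2.46e-24, limma).

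Between d7 and d10 none rose (background 3.63%) and 2 fell (9.09%), and 4 were higher by the adjusted p alone, for which no background is given. *TGFBI* fell by 1.44 on the log2 scale (adjusted p = 5.15e-10, limma) and *TNC* fell by 1.22 (adjusted p = 1.61e-09, limma). *FBLN1* was just outside the limit at -0.97. Without library 3 of d7 these steps were -1.68, -1.43 and -1.09, so that *FBLN1* fell as well. In that library *TGFBI* was at 0.607, *TNC* at 0.643 and *FBLN1* at 0.767 of the mean of the other 2 libraries of d7, while *FN1* was at 1.17 and *THBS1* at 1.32 of it.

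Between d10 and d15, 4 genes rose (background 12%) and 1 fell (10.2%). The log2 step was 1.70 for *POSTN* (adjusted p = 2.75e-12, limma), 1.28 for *FBLN1* (7.45e-12), 1.17 for *TNC* (1.18e-09) and 1.09 for *TGFBI* (1.64e-08), which was 0.60 with quantile normalization. *THBS1* fell by 1.13 on the log2 scale (adjusted p = 1.19e-11, limma), and *SPOCK1* had a step of -0.87, outside the limit. The steps of *TGFBI*, *TNC* and *FBLN1* over these 5 days were thus in the direction opposite to those of *THBS1* and *SPOCK1*.

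Between d15 and d20, 3 genes rose (background 7.55%), 2 by DESeq2. None fell (7.43%) by limma, edgeR or DESeq2, while 3 were lower at an unadjusted p under 0.05 by limma. The log2 step was 1.21 for *FBN1* (adjusted p = 5.77e-09, limma), 1.08 for *THBS1* (4.9e-11) and 1.00 for *SPOCK1* (5.57e-14). *TGFBI* was just outside the limit at -0.96. The *SPOCK1* step was just inside it, and was 1.00, 0.98 and 0.98 without library 2 of d15, library 3 of d15 and library 3 of d20, in each case below the 2-fold limit before rounding, as it was by DESeq2. No gene of the 10 was higher than d0 on one day and lower on another.

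**Figure D3:**
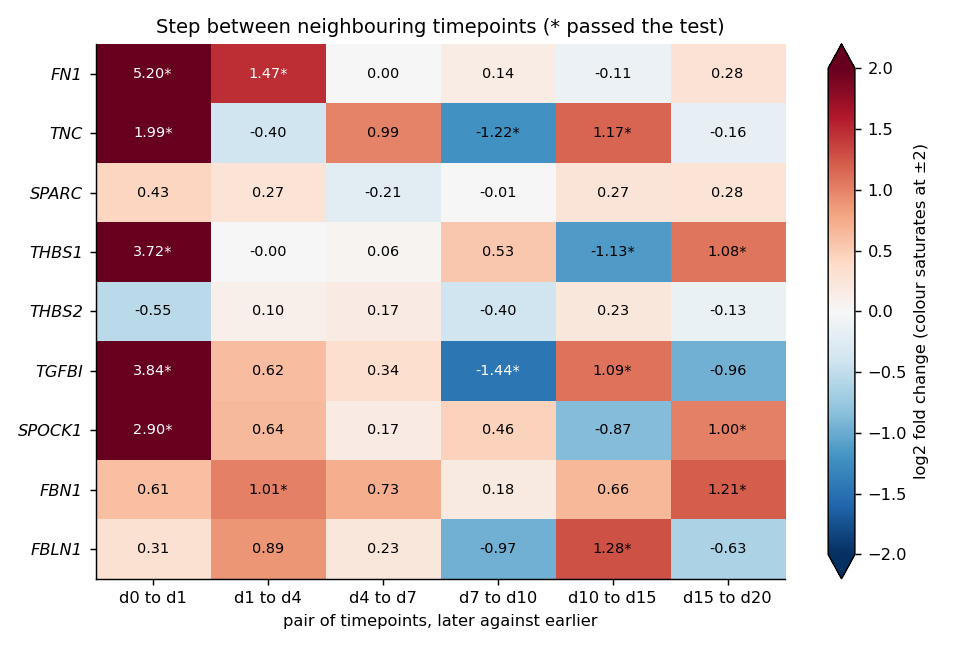
Log2 fold change of each timepoint against the one before it for 9 of the 10 genes, in color and as numbers, with an asterisk where the step passed an adjusted p under 0.05 and 2-fold by limma. *POSTN* is left out because it had no read at d0. *TGFBI*, *TNC* and *FBLN1* go down from d7 to d10 and up from d10 to d15, and *THBS1* and *SPOCK1* go the other way from d10 to d15.

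The log2 ratio of *TGFBI* to *THBS1* within a library, a pair chosen after its values were seen and so given without a test, was 0.98 ± 0.08 (SD, n = 3) at d0, 1.10 ± 0.06 at d1 and 1.72 ± 0.08 at d4. It was 2.00 ± 0.65 on d7, 0.02 ± 0.02 at d10, 2.24 ± 0.06 on d15 and 0.20 ± 0.05 at d20. The 2 transcripts were thus at nearly equal normalised read counts at d10 and d20, and all libraries of d4, d7 and d15 were above all libraries of d0. At d7 the lowest ratio, 1.25, was that of library 3.

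**Figure D4:**
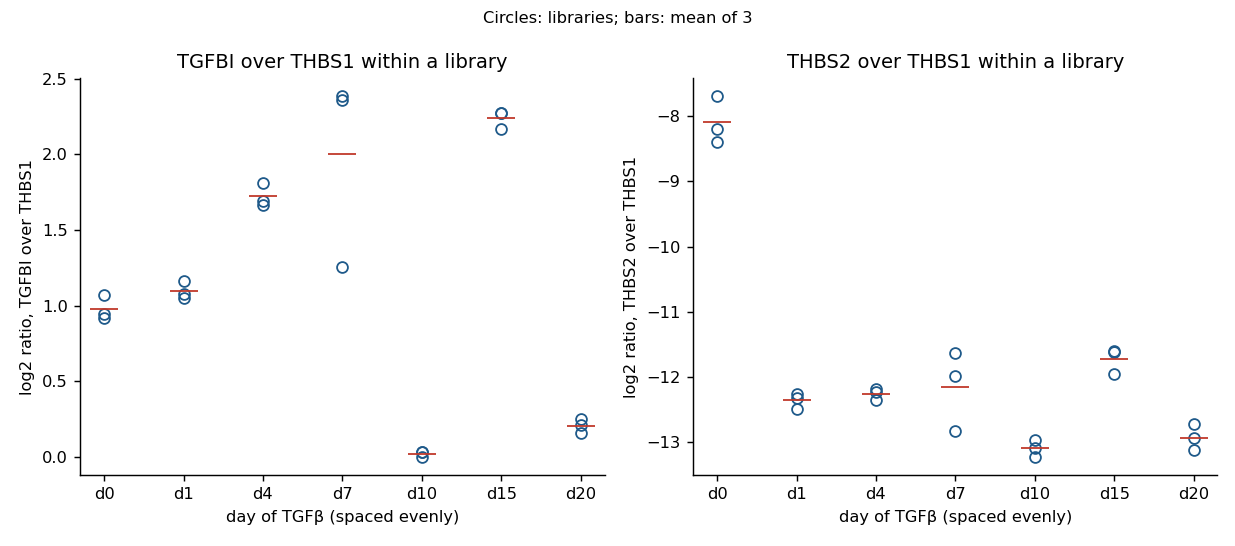
Log2 ratio of *TGFBI* to *THBS1* (left) and of *THBS2* to *THBS1* (right) within each library (circles) at 7 timepoints, with the mean of 3 as a bar. On the left the libraries of d10 and d20 lie between 0.00 and 0.25, below all others, and on the right all treated libraries lie at least 3 units below d0.

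Other genes of the same matrix were counted from lists of related genes. Of all tested genes, 6.47% rose at d1, 9.68% at d4 and 8.79% on d7. At d10, d15 and d20 the share was 6.94%, 11.7% and 7.51%. The shares that fell on these 6 days were 3.87%, 5.03%, 2.93%, 7.34%, 8.66% and 4.72%. The lists are small, so the few genes that fell in a list are not separated from these shares. Receptors come first, since fibronectin fibrils form through integrins. Of 16 listed receptor genes 12 were tested, and 5 rose at d1, 7 at d4, 6 on d7, 4 at d10, 5 on d15 and 7 at d20, while *ITGB8* alone fell, at d10 and d20. The 7 at d20 were *ITGA5*, *ITGAV*, *ITGB1*, *ITGB3*, *ITGB5*, *ITGB6* and *SDC2*, and the median log2 fold change of the list at d20 was 1.06. *ITGB3*, the partner of αv in a receptor for fibronectin and vitronectin, went from 2.71 ± 0.84 (SD, n = 3) to 46.5 ± 8.52 at d20 (adjusted p = 6.17e-12, limma), with at most 4 reads in an untreated library. *ITGB6*, whose αvβ6 integrin binds fibronectin and activates latent TGFβ, went from 1218 ± 16.6 to 7034 ± 59.0 (log2 fold change 2.53, SE 0.06, adjusted p = 9.65e-19, limma). It was highest at d4, at 13332 ± 328.

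All 10 listed partners in fibril assembly and crosslinking were tested, and 4 rose at d1, 4 at d4, 5 on d7, 3 at d10, 4 on d15 and 6 at d20, with none falling by at least 2-fold. None was lower at d20 at an unadjusted p under 0.05 by limma, and edgeR and DESeq2 also placed none lower. The 6 at d20 were *FAP*, *FERMT2*, *LOX*, *LOXL2*, *TGM2* and *TNS1*, with a list median of 1.13. *TGM2*, a transglutaminase that crosslinks fibronectin, went from 231 ± 14.9 to 11203 ± 393 (log2 fold change 5.59, SE 0.09, adjusted p = 4.86e-22, limma). Its highest mean was earlier, 24002 ± 259 at d1, and its lowest treated mean was 6553 ± 75.2 on d15. *FAP*, a cell surface protease found on activated fibroblasts, went from 24.3 ± 5.06 to 540 ± 25.4 (log2 fold change 4.44, SE 0.10, adjusted p = 3.29e-19, limma), and was highest at d4, at 1101 ± 71.1.

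Of 19 listed microfibril and elastic fiber genes 14 were tested. The number that rose was 6 at d1, 9 at d4, 9 on d7, 6 at d10, 10 on d15 and 8 at d20, and 1 fell at d1, d4, d10 and d15, 0 on d7 and 2 at d20, *EMILIN1* and *LTBP3*. At d20 the 8 were *FBLN5*, *FBLN7*, *FBN2*, *HMCN1*, *LTBP1*, *LTBP2*, *MFAP2* and *MFAP5*, with a list median of 1.12. *FBLN5*, a fibulin needed for elastic fibers, went from 5.44 ± 1.500 to 1106 ± 50.6 (log2 fold change 7.45, SE 0.13, adjusted p = 1.3e-21, limma). *MFAP2*, a microfibril protein, had no read at d0 and was at 48.8 ± 10.9 at d20, at least 17.9-fold above the floor. Without library 3 of d20 the count that fell was 1.

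Of 25 listed symbols of other matricellular genes, which include older and newer names of the same genes, 19 were in the table and 11 were tested. The number that rose was 3 at d1, 5 at d4, 4 on d7, 3 at d10, 7 on d15 and 4 at d20, and 1 fell at d1, d7, d10 and d15. At d20 none fell, 2 were lower at an unadjusted p under 0.05 by limma, and neither edgeR nor DESeq2 placed any lower by 2-fold. *CYR61* and *CTGF*, secreted CCN proteins that bind integrins, led at d20. *CYR61* went from 1384 ± 169 to 13916 ± 1068 (log2 fold change 3.33, SE 0.07, adjusted p = 1.7e-20, limma) and *CTGF* from 387 ± 157 to 2766 ± 356 (2.91, SE 0.17, adjusted p = 1.85e-12). The list median at d20 was 0.37, the lowest of the 4 lists. Without library 3 of d7 the number that rose on that day was 7 receptors, 5 assembly partners, 10 microfibril and elastic fiber genes and 5 other matricellular genes.

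**Figure D5:**
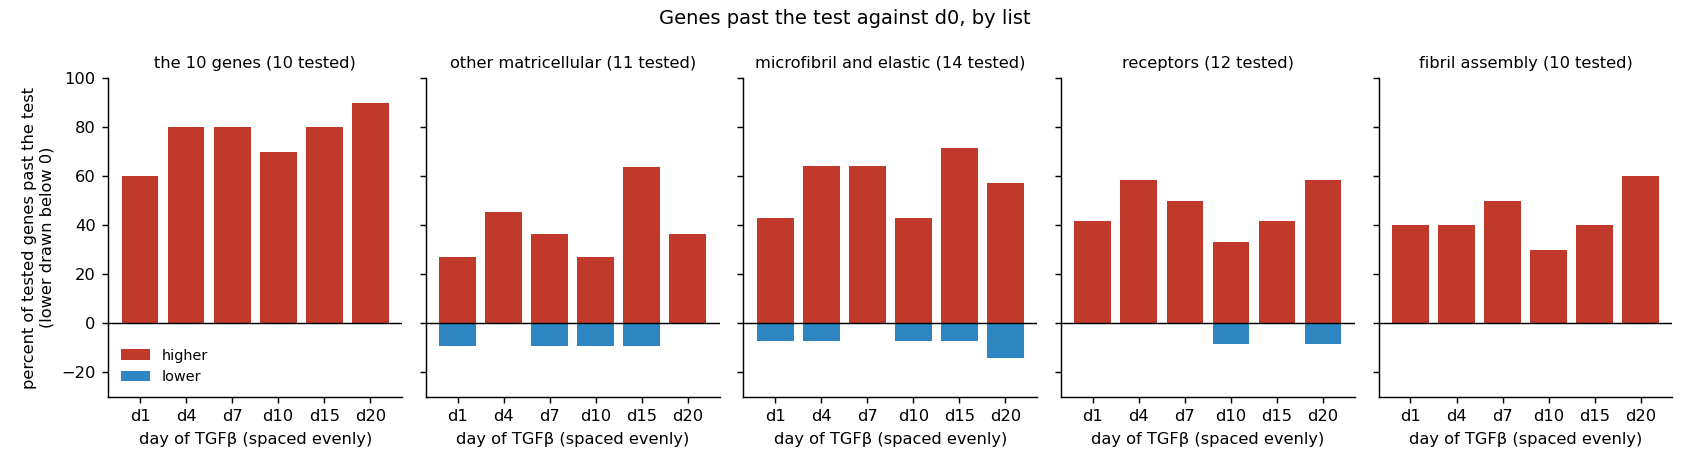
Percent of the tested genes of each list that were higher (above 0) or lower (drawn below 0) than d0 by limma, with adjusted p under 0.05 and 2-fold as limits, on each day of TGFβ. The 10 genes have no lower bar, and their highest bar is 9 of 10 at d20. Over all tested genes, which are not drawn, 6.47% to 11.7% were higher and 2.93% to 8.66% were lower.

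The genes whose log2 levels followed each of the 10 most closely over the 21 libraries are given by Pearson's r, as a description, since libraries of 1 timepoint share their condition. For *FN1* they were *GAS6*, *SYT1* and *FRMD6*, each with r of 0.99. The closest to *TGFBI* was *KANK4* (0.99), at 60.9 at d0, 1508 at d10, 4195 on d15 and 1755 at d20. The closest to *THBS1* was *ELL2* (0.99), to *POSTN* *SPATA20* (0.99), to *SPOCK1* *QSOX1* (0.98), to *SPARC* *ALCAM* (0.98), to *FBLN1* *RBFOX2* (0.98), to *TNC* *PALLD* (0.97) and to *FBN1* *MME* (0.97). *THBS2* had no neighbor as close, with *SPPL3* at 0.78.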

How the data were processed

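HMLE cells at 7 timepoints, 3 libraries each, were analysed. The authors deposited a normalised signal per gene, which equals whole reads over 1 size factor per library (100% of values whole within 0.1). The submitters' processing notes name STAR 2.7, Salmon 1.4 and hg19, with no role given. Totals were 18847917 to 22667754 reads per library, and intervals cover counting error only. The paper calls the libraries biological triplicates. Outside d7, a chi-square per gene between 2 libraries of a timepoint was 1.37 to 2.84, where counting error alone gives about 1. The libraries of a timepoint thus differed by more than counting error, most between libraries 1 and 3 of d0 (2.84). The spread was still small, and the standard errors and p-values rest on it. How far they cover differences between separate time courses was not tested. Library numbers are the order of columns and carry no pairing.

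The test was limma 3.58.1 in R 4.3.3, applied to log2(value + 1) (eBayes with a trend, 1 mean per timepoint), for genes with a mean of at least 10, with Benjamini-Hochberg adjustment within each contrast. Calls needed an adjusted p under 0.05 and 2-fold. Shares and ratios were compared by two-sided exact permutation tests (SciPy 1.17.1). Alternatives were edgeR 4.0.16 and DESeq2 1.42.0 on recovered reads, quantile normalization, libraries scaled to 1 total, a pseudocount of 10, testing without the filter, fits of 2 groups alone, calls without the 2-fold minimum, and leaving out each library. Leaving out d7 was added after seeing the data. The script was tested on simulated data. Sequences are from RefSeq, and *SPOCK1* had no entry. The 10 genes and all lists were chosen with earlier results of these data known. Named beside the 10 are the 2 changed genes of each list with the largest change at d20, the genes of closest pattern (3 for *FN1*, 1 for each of the others), and those that complete a count. One marker and the sum over its list are not reported here. Figures were drawn with matplotlib 3.10.9.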

Additional observations from a re-analysis of the deposited data

Results flagged for a closer look

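Between neighbouring treated timepoints 13 steps passed an adjusted p under 0.05 and 2-fold by limma, in 8 of the 10 genes. Over all tested genes the shares that rose at the 5 pairs of timepoints were, in order, 4.19%, 2.27%, 3.63%, 12% and 7.55%. The shares that fell were 1.98%, 1.51%, 9.09%, 10.2% and 7.43%. With untreated cells at d0 alone, time in culture and time in TGFβ cannot be told apart in these steps. From d1 to d4 the log2 steps were 2.90 for *POSTN*, 1.47 for *FN1* and 1.01 for *FBN1*. From d7 to d10 they were -1.44 for *TGFBI* and -1.22 for *TNC*, and without library 3 of d7 they were -1.68 and -1.43. From d10 to d15 they were 1.70 for *POSTN*, 1.28 for *FBLN1*, 1.17 for *TNC*, 1.09 for *TGFBI* and -1.13 for *THBS1*. From d15 to d20 they were 1.21 for *FBN1*, 1.08 for *THBS1* and 1.00 for *SPOCK1*. Of these, 10 were upward and 3 downward.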

How the results depend on the processing

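No paired analysis was possible because column names hold the timepoint without a replicate number. Under the alternatives, a fold change counted as unchanged if it kept its direction and side of the limits. Shares and ratios counted as unchanged if they moved by less than the spread. Counts of genes did so within a set factor, so single genes could cross a limit inside them. For example, 6 genes higher at d1 became 9 with no minimum fold change. The share of all tested genes that pass without that minimum is not given. Counts without it therefore have no background and are not read as a result about the genes. Of 1908 values recomputed, 1827 were unchanged by these rules, 77 moved further, 4 lost the 2-fold limit and 0 reversed. The 4 were *SPARC* at d20 (0.83 with the same total, 0.87 with quantile normalization) and *FBLN1* at d4 and d20 (1.00 and 0.90 with the same total). With no minimum fold change, 1 of the 10 genes was lower at d10 and 1 at d20, against 0, 7 were higher and 1 lower from d1 to d4, 6 higher and 1 lower from d4 to d7, 4 higher from d7 to d10, 2 lower from d10 to d15, and 5 higher and 3 lower from d15 to d20. From d4 to d7, 1 gene, *TNC*, rose with quantile normalization, edgeR, DESeq2 and without library 3 of d7, and the counts over leaving out each library ranged from 0 to 1. At d20 the other matricellular genes that fell were 1 with no filter, 1 with quantile normalization and 2 with no minimum fold change, against 0. The microfibril genes that fell at d20 were 1 with a pseudocount of 10 and 1 to 2 over leaving out each library, against 2, and 10 assembly partners rose with no minimum fold change, against 6. The difference in the log2 ratio of *POSTN* to *TGFBI* at d20 was 5.93 with a pseudocount of 1 and 2.63 with 10, because *POSTN* had no read at d0. Among the steps, *FBN1* from d1 to d4 lost the 2-fold limit with a pseudocount of 10, quantile normalization, edgeR and without library 2 of d1 or of d4. *SPOCK1* from d15 to d20 lost it with a pseudocount of 10, quantile normalization, the same total, DESeq2 and without library 2 or 3 of d15 or library 3 of d20, *TGFBI* from d10 to d15 lost it with quantile normalization, and *FBLN1* from d7 to d10 passed it with quantile normalization and the same total. Depth limits *THBS2*, with 13 to 34 reads per library, and *POSTN* at d0, where a count of 0 allows up to 3 reads.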

Other observations

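*SPP1*, *TNXB* and *ITGB8*, picked after their values were seen, add to the lists of other matrix genes and receptors. *SPP1*, which encodes osteopontin, was at 15.3 ± 2.27 (SD, n = 3) at d0, 4.50 ± 2.19 on d15 and 77.3 ± 4.61 at d20. Its log2 fold change against d0 was -1.65 on d15 (adjusted p = 0.000783, limma) and 2.27 at d20 (adjusted p = 4.19e-05), with at most 21 reads in any library before d20. *TNXB*, which encodes tenascin-X, was at 30.9 ± 2.85 at d0, 114 ± 4.25 at d4, 22.6 ± 2.62 at d10, 232 ± 26.6 on d15 and 45.0 ± 12.7 at d20. Its log2 fold change was 2.87 on d15 (adjusted p = 5.37e-12, limma) and -0.44 at d10 (adjusted p = 0.0384). *ITGB8*, whose αvβ8 integrin activates latent TGFβ, was at 789 ± 50.2 at d0, 189 ± 15.8 at d10, 458 ± 20.1 on d15 and 168 ± 12.2 at d20, and fell by 2.05 on the log2 scale at d10 and by 2.22 at d20 (adjusted p = 6.74e-15 and 1.54e-15, limma).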
